A study of Mus musculus with 121 samples.

Results

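A set of 34 genes that act in mitosis was followed across single bone marrow cells of mice carrying the R412X allele of Gfi1, a zinc finger repressor needed for granulocyte formation. The genes were chosen by name for their known parts in mitosis, without a cut on their values but with earlier results of these data known. All 34 were found by symbol among the 23946 genes of the deposited table. The question asked of them was which granulocytic states still hold the transcripts of dividing cells.

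All cells came from C57BL/6 mice whose genotype the labels give both as Gfi1-R412X/- and as HTZ. Marrow from crushed hindlimbs was passed over CD117 (Kit) beads and sorted with antibodies, and single cells were lysed on the Fluidigm C1 chip before SMARTer cDNA synthesis and Nextera XT library preparation. The labels name 2 populations, CD11b+ GMP-P with 46 cells and GMP with 75 cells, and a second deposited table gives each cell 1 of 12 state names. Age is not stated in the labels, no label names an animal, and cells with unmutated Gfi1 were not analysed here, so nothing below measures an effect of the allele. A single run name, read as a late July date, covers CD11b+ GMP-P. Of the GMP cells, 13 carry other run names with the same day and are called late July GMP, and the remaining 62, called the other GMP run, carry an undated one. Population and run name therefore cannot be told apart. The late July cells labelled GMP stood apart from the other GMP run: Itgam, the CD11b gene, was detected in 11 of 13 of them against 5 of 62, and in 35 of 46 CD11b+ GMP-P cells. The stem and progenitor gene Cd34 was detected in 5 of 13 against 61 of 62 and 13 of 46, Kit, the CD117 gene, in 7, 44 and 14 of the same cells, and the Fc receptor gene Fcgr3 in 12, 59 and 44. Values are therefore given for both kinds of GMP cell. Each population counts as 1 sample, so no test was made, and every share or mean describes these cells.

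Mitosis follows DNA replication. Cyclin A and cyclin B bind the kinase Cdk1 to drive entry, Aurora and Polo-like kinases build the spindle, the checkpoint kinases Bub1 and Ttk delay separation until chromosomes are attached, and the anaphase-promoting complex with Cdc20 and Ube2c then destroys the cyclins. Most of these genes are transcribed late in the cycle, so their RNA marks cells in or near G2 and M. In the marrow, granulocyte precursors divide through the stages that fill primary and secondary granules and stop dividing as the nucleus segments.

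Many such genes share short promoter elements, and the promoters of the 2 members with the highest mean TPM (transcripts scaled to one total per cell) and of the 2 with the largest Gran-2 minus Myelo-2 difference among those holding a searched TTTGAA or TTCGAA are shown for this reason. The elements searched on both strands were TTTGAA and TTCGAA, forms of the cell cycle genes homology region, and CCAAT, the letters of the NF-Y box. Of the members, 30 of 34 matched the RefSeq promoter table (GRCm38.p6) by symbol, with 32 promoters of 300 bases, 250 before and 50 after the start. In the lines below each promoter is written 5′ to 3′ on the gene's strand, with capitals on any match, including the reversed forms TTCAAA and ATTGG.
Top2a: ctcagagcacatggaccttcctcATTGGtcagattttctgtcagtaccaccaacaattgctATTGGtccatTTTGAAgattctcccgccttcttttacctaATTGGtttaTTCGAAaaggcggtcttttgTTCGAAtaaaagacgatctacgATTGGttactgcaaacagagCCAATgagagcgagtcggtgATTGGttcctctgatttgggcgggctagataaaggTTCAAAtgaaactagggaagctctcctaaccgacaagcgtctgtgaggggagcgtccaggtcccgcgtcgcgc
Ube2c: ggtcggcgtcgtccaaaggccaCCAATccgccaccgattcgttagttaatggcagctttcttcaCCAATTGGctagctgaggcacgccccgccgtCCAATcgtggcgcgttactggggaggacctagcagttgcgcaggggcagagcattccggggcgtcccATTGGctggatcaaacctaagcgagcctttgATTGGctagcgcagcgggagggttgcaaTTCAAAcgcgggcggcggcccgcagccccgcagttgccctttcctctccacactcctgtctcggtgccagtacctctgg
Kif11: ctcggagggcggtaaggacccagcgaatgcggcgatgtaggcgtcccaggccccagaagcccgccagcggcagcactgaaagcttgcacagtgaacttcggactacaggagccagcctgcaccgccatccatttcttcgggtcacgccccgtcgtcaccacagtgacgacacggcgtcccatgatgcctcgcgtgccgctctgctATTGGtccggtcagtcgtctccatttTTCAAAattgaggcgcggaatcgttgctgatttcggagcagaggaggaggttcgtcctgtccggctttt
Cdca3: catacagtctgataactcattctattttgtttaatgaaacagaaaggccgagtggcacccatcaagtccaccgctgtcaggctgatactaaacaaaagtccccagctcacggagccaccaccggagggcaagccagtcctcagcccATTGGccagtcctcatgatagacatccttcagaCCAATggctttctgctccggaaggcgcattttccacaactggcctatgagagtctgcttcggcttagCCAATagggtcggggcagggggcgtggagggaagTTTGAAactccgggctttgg
They lie at chr11:99024140-99024439 on the minus strand for Top2a, chr2:164769679-164769978 on the plus strand for Ube2c, chr19:37376132-37376431 on the plus strand for Kif11 and chr6:124829926-124830225 on the plus strand for Cdca3. In the Top2a promoter the first base of a TTTGAA lay 23 bases before the start, in Ube2c 29 and in Kif11 19, while in Cdca3 it lay 30 bases after the start. Both orientations of CCAAT can share letters, as they do once in Ube2c. TTTGAA or TTCGAA stood in 26 of the 32 member promoters (81.25%) against 6316 of all 32851 promoters in the table (19.2%). CCAAT stood in 27 of 32 (84.4%) against 37.4% of all, and both kinds in 24 of 32 (75%) against 7.52% of all. These are matches of letters in a window, not sites shown to be bound.

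A member counted as detected from 1 TPM upwards. A cell was called mitosis-high when at least 17 of the 34 members were detected. Of all cells, 59 were mitosis-high (48.8%, exact 95% interval 39.6 to 58.01%). The number of members per cell ran from 0 to 33 with a median of 16 and showed no gap at the threshold: 34 cells held fewer than 10, 28 held 10 to 16, 32 held 17 to 24 and 27 held 25 or more. Near the threshold, with 15 to 18 members, lay 15 cells. Intervals here and below are Clopper-Pearson intervals over cells and cover counting error only.

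Of the granulocytic states with 10 or more cells, Gran-2 had the highest share of mitosis-high cells and Myelo-4 the lowest. Gran-2 had 11 mitosis-high cells of 15 (73.3%, 44.9 to 92.2%) and a median of 24 members, with cells from 7 to 32. Gran-1 had 8 of 14 (57.1%, 28.9 to 82.3%) and a median of 17, with cells from 3 to 29. Myelo-2 had 10 of 18 (55.6%, 30.8 to 78.5%) and a median of 19, with cells from 0 to 29. Cells almost without these transcripts and cells with most of them thus carried the same state name, Myelo-2. Myelo-1 held 5 cells, with 7, 9, 15, 17 and 19 members, of which 2 were mitosis-high. Myelo-4 had 0 of 10, a count under which the share could still be up to 30% (limit set by 3 cells; exact upper end 30.85%), and its cells held 1 to 11 members with a median of 3. No Myelo-4 cell reached 12 members. Detection at 10 TPM lowered the share to 53.3% in Gran-2, 35.7% in Gran-1, 33.3% in Myelo-2 and 20% in Myelo-1. As another alternative Top2a, Mki67, Ccna2, Cdk1 and Birc5 were left out, so that 15 of 29 members made a cell mitosis-high. This gave 66.7% in Gran-2, 40% in cMoP, 35.7% in Gran-1, 20% in Myelo-1 and 38.9% in Myelo-2. The single Myelo-3 cell held 7 members.

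**Figure D1:**
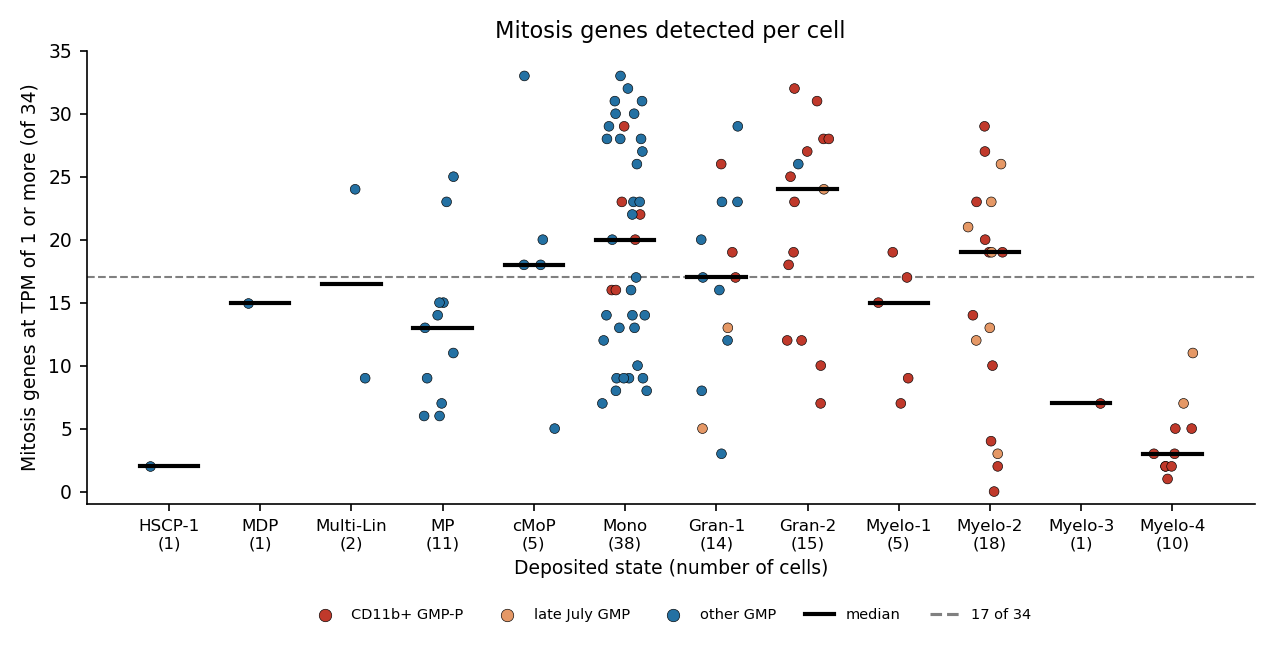
Number of the 34 mitosis genes at a TPM of 1 or more in each cell (vertical axis) for the 12 deposited states (horizontal axis, number of cells in brackets). Points are single cells coloured by population and run name, bars are medians and the dashed line is at 17. Gran-2 has the highest median of the granulocytic states (24), Myelo-2 spreads from 0 to 29 and all 10 Myelo-4 cells lie at 11 or below.

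Outside the granulocytic states, Mono had 21 mitosis-high cells of 38 (55.3%, 38.3 to 71.4%) and a median of 20 members, from 7 to 33. In MP, 2 of 11 cells were mitosis-high (18.2%, 2.28 to 51.8%), with a median of 13 and a range of 6 to 25. The 5 cMoP cells held 5, 18, 18, 20 and 33 members, and 4 of them were mitosis-high. Ordered by share, cMoP, Gran-2, Gran-1, Myelo-2, Mono, Myelo-1 and MP have intervals that overlap from each to the next. The Myelo-4 interval (0 to 30.85%) lies below those of Gran-2 and Mono, and its upper end just passes the lower end of the Myelo-2 interval, 30.76%.

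At the main setting the shares of the populations were close to each other. CD11b+ GMP-P had 24 mitosis-high cells of 46 (52.2%, 36.9 to 67.1%) and GMP 35 of 75 (46.7%, 35.1 to 58.6%). The late July GMP cells had 5 of 13 (38.5%, 13.9 to 68.4%) and the other run 30 of 62 (48.4%, 35.5 to 61.4%). Each interval contains the other shares, so no difference between populations was detectable with these cells. Myelo-2 occurred in both sets of cells with the late July date, and its share was 6 of 11 in CD11b+ GMP-P and 4 of 7 in late July GMP. Myelo-4 had 0 of 7 and 0 of 3 in the same sets. Mono had 4 of 6 in CD11b+ GMP-P and 17 of 32 in the other GMP run. Gran-1 shares spread most by run but rest on few cells, with intervals that overlap. They were 3 of 3 in CD11b+ GMP-P (29.2 to 100%) and 0 of 2 in late July GMP (0 to 84.2%). The other run had 5 of 9 (21.2 to 86.3%). Of the 2 late July Gran-1 cells, 1 held 2783 TPM of erythroid markers. Of the Gran-2 cells, 13 of 15 were CD11b+ GMP-P, and 9 of these 13 were mitosis-high.

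The number of genes detected in a cell moved with these shares. Median detected genes were 4367 in Gran-1, 3760 in Gran-2, 2504 in Myelo-1, 2448.5 in Myelo-2 and 1685.5 in Myelo-4, and 4657 in Mono and 4455 in MP. TPM keeps no read depth, a 0 can be a missed transcript, and less RNA per cell and shallower libraries cannot be told apart here. The share of TPM held by the 20 highest genes of a cell also moved with the states, with medians of 17.5% in Gran-1, 28.2% in Gran-2, 56.8% in Myelo-2 and 65.2% in Myelo-4. Its part in the member values was not tested. Across all cells of the series, members detected and other genes detected had a Pearson r of 0.53 (Spearman rho 0.49), and r was 0.50 without the 2 cells farthest from the median. Within states r was 0.44 over 38 Mono, 0.64 over 15 Gran-2, 0.57 over 18 Myelo-2, 0.32 over 14 Gran-1, 0.45 over 11 MP and 0.54 over 10 Myelo-4 cells. Without the 2 farthest cells of each state these became 0.30, 0.82, 0.44, 0.23, 0.037 and 0.016, so in MP and Myelo-4 they rested on those cells. Both counts in such a correlation come from the same library. The order of states did not follow gene number throughout: MP detected 4455 genes with a median of 13 members, while Myelo-2 detected 2448.5 with a median of 19. Among cells with 1299 to 2122 other genes detected, the range of Myelo-4, 2 of 7 Myelo-2 cells (28.6%, 3.67 to 70.96%) were mitosis-high against 0 of 10 Myelo-4 cells. The Myelo-2 share in that range lies within the limit of 30% for 0 of 10 cells, so no difference was detectable there by this measure. Counted among the 1500 highest genes of each cell instead, the median was 11 members in Myelo-2, 9 in Gran-2, 6 in Gran-1 and 3 in Myelo-4. A fixed 1500 is a larger part of the genes in states that detect fewer. The order of states by this count is therefore not free of gene number.

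**Figure D2:**
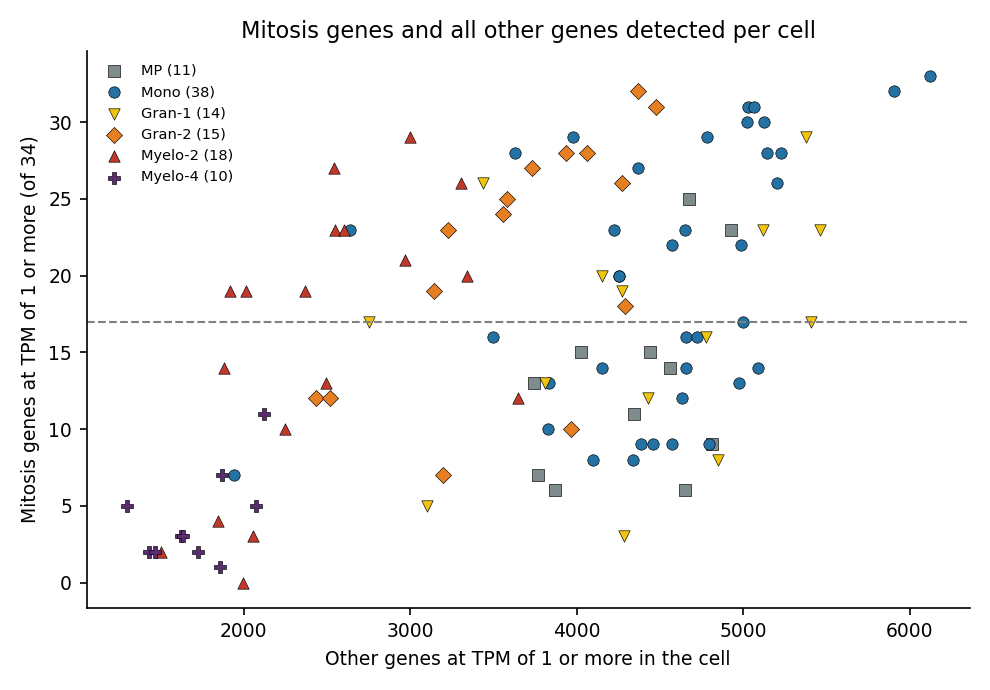
Mitosis genes detected (vertical axis, of 34) against all other genes detected (horizontal axis) at a TPM of 1 or more, 1 point per cell, for 6 states of 10 or more cells. The dashed line is at 17 members. Myelo-4 cells (crosses) sit at the lower left with 1299 to 2122 other genes, where 7 Myelo-2 cells (red triangles) also lie, 2 of them above the line, and MP cells (squares) detect many genes but lie mostly below it.

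Taking the members 1 by 1, 29 of 34 were present in 50% or more of Gran-2 cells, against 22.9% of the 12959 genes examined. In Mono it was 25 of 34 (31.3% of all genes), in cMoP 19 (29.2%), in Gran-1 17 (32.3%), in Myelo-2 17 (13.3%), in Myelo-1 9 (15.2%) and in MP 8 (28.7%). In Myelo-4 it was 0 of 34, against 8.97% of all genes. The members' share was above the background of the same cells in all of these states except MP, where 8 of 34 lies below it, and Myelo-4. Of the 6 states with 10 or more cells, Gran-2 gave the highest detected share for 17 members and Myelo-4 the lowest for 31.

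**Figure D3:**
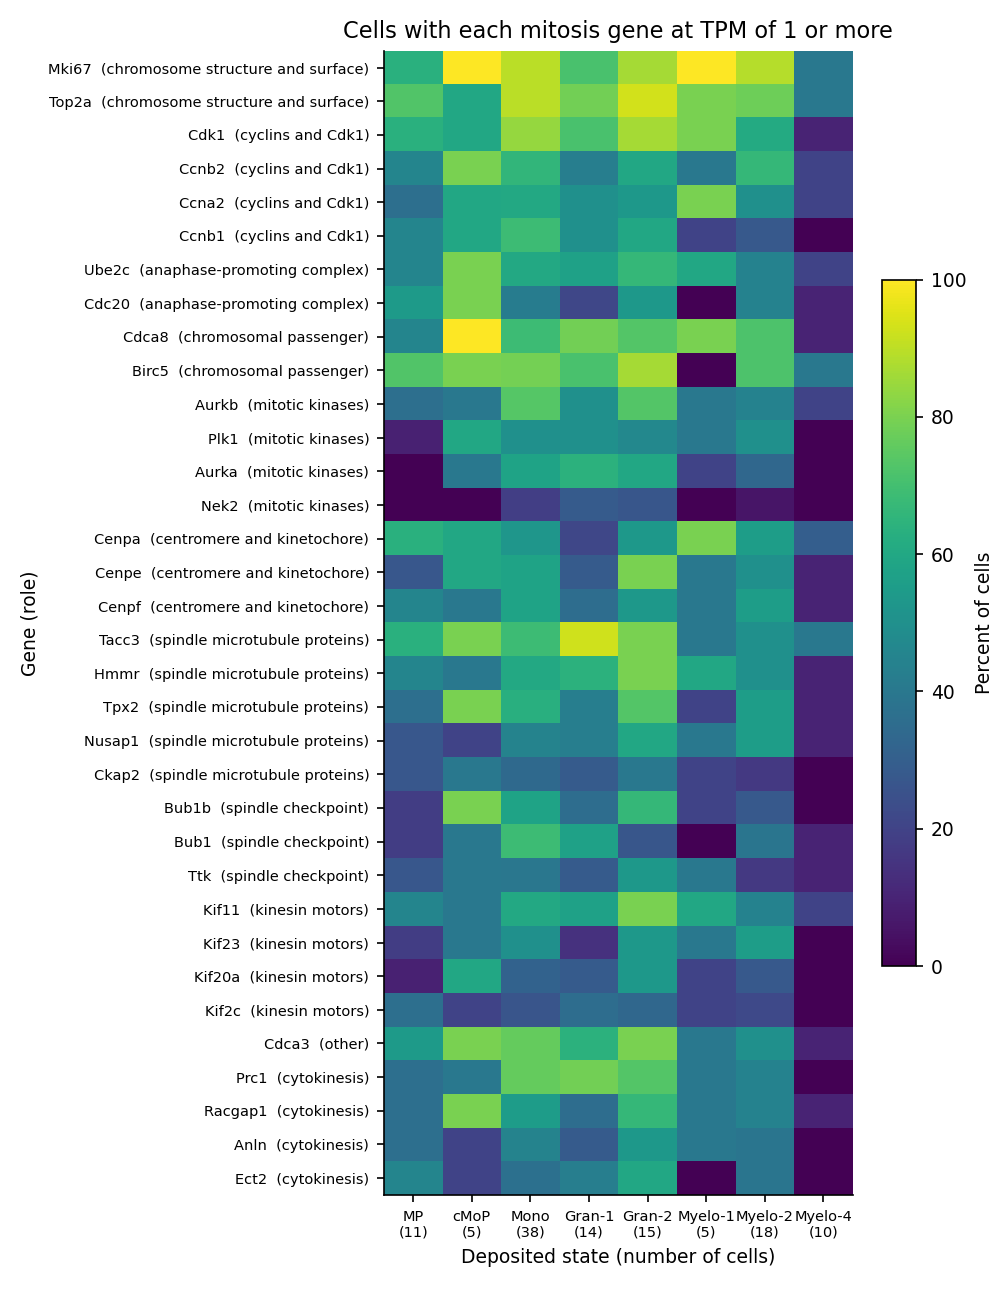
Percent of cells with each of the 34 mitosis genes at a TPM of 1 or more (colour, 0 to 100) in 8 deposited states (horizontal axis, number of cells in brackets), with genes grouped by role (vertical axis). The Myelo-4 column is darkest, with 12 genes in no cell, and the Gran-2 column holds 29 genes at 50% or more.

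The genes of chromosome structure were the most widely detected members. Mki67, the Ki-67 protein that coats mitotic chromosomes, was found in 96 of all cells, and Top2a, the topoisomerase that untangles sister chromatids, in 94. Top2a also had the highest mean level of all members over all cells, 206 TPM. In Gran-2, Top2a had a median of 207 TPM (up to 864) and was detected in 14 of 15 cells. In Myelo-2 its median was 79.7 TPM (up to 1349) in 14 of 18 cells, and in Myelo-4 0.48 TPM (up to 73.3) in 4 of 10. Mki67 had a median of 93.9 TPM in Gran-2 (13 of 15 cells), 67.6 in Myelo-2 (16 of 18), 5.36 in Gran-1 (10 of 14), 2.83 in MP (7 of 11) and 0.60 in Myelo-4 (4 of 10). The values of Gran-2 and Myelo-2 overlap for both genes, while most Myelo-4 cells lie at or near 0.

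Cyclins split from each other in Myelo-2. Ccnb1, the cyclin B1 that activates Cdk1 at mitotic entry, was detected in 26 of 38 Mono, 9 of 15 Gran-2 and 7 of 14 Gran-1 cells but in 5 of 18 Myelo-2 cells and 0 of 10 Myelo-4 cells. Its median was 37.7 TPM in Gran-2, 72.2 in Mono and 0 in Myelo-2, where the highest cell reached 660 TPM. Of the 10 mitosis-high Myelo-2 cells, 4 held Ccnb1 at 6.45, 182, 563 and 660 TPM, and the other 6 were below 1. Ccnb2, the related cyclin B2, was in turn detected in 12 of 18 Myelo-2 and 9 of 15 Gran-2 cells, and Ccna2, cyclin A2, in 9 of 18 and 8 of 15. Cdk1, their kinase, was detected in 11 of 18 Myelo-2 cells with a median of 101 TPM, in 13 of 15 Gran-2 cells with a median of 53.4 TPM and in 1 of 10 Myelo-4 cells.

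Of the anaphase-promoting complex genes, Ube2c, its ubiquitin-conjugating enzyme, was detected in 10 of 15 Gran-2, 8 of 18 Myelo-2 and 2 of 10 Myelo-4 cells. Its mean over all cells was 180 TPM, far above its median of 2.08 TPM. Cdc20, the activator of the complex, was detected in 8 of 15 Gran-2 and 8 of 18 Myelo-2 cells but in 3 of 14 Gran-1 and 0 of 5 Myelo-1 cells. Birc5 (survivin) and Cdca8 (borealin), which hold the Aurora B kinase at centromeres, were detected in 84 and 79 of all cells. Birc5 was found in 13 of 15 Gran-2, 13 of 18 Myelo-2 and 4 of 10 Myelo-4 cells, yet in 0 of 5 Myelo-1 cells (limit set by 3 cells 60%, exact upper end 52.2%). Cdca8 was found in 11 of 15, 13 of 18 and 1 of 10 cells of Gran-2, Myelo-2 and Myelo-4.

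The mitotic kinases were patchier. Aurkb was detected in 11 of 15 Gran-2 and 8 of 18 Myelo-2 cells, Aurka (the spindle pole kinase) in 9 and 6, and Plk1 in 7 and 9. In MP, Aurka and Nek2 were detected in 0 of 11 cells (limit set by 3 cells 27.3%), and Plk1 in 1. Nek2, a centrosome kinase, was the least detected member, in 16 of all cells, and 1 of them was a Myelo-2 cell. Of the checkpoint genes, Bub1 was found in 26 of 38 Mono and 8 of 14 Gran-1 cells but 4 of 15 Gran-2 cells, the reverse of its partner Bub1b with 10 of 15 Gran-2 and 5 of 14 Gran-1 cells. Ttk was detected in 8 of 15 Gran-2 and 3 of 18 Myelo-2 cells.

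Among the centromere genes, Cenpe, a kinetochore motor, was detected in 12 of 15 Gran-2, 9 of 18 Myelo-2 and 4 of 14 Gran-1 cells. Cenpa, the centromeric histone, was detected in 10 of 18 Myelo-2 cells with a median of 43.5 TPM, in 8 of 15 Gran-2 cells with 9.94 TPM and in 3 of 14 Gran-1 cells with 0. Cenpf was found in 10 of 18, 8 of 15 and 5 of 14 of the same states. The kinesins ranged from Kif11, the motor that pushes spindle poles apart (65 of all cells), to Kif2c, which shortens microtubules (30). Kif23 of the midzone was detected in 10 of 18 Myelo-2, 8 of 15 Gran-2, 2 of 14 Gran-1 and 0 of 10 Myelo-4 cells, and Kif20a in 5, 8, 4 and 0 of them. Spindle proteins included Tacc3, found in 78 cells of the series and in 13 of 14 Gran-1 cells, Hmmr in 67, Tpx2 in 62, Nusap1 in 50 and Ckap2 in 33. Of the cytokinesis genes, Prc1, which bundles midzone microtubules, was detected in 69 cells, Racgap1 in 55, and Ect2 and Anln, which act at the cleavage furrow, in 43 each. Mean detection of these 4 was 63.3% in Gran-2, 41.7% in Myelo-2 and 2.5% in Myelo-4. Cdca3, a trigger of mitotic entry, was found in 75 cells of the series.

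Detection in Myelo-4 was sparse but included high values. Over 34 genes and 10 cells, 41 of 340 possible detections were made, 26 of them at 10 TPM or more. Birc5, Mki67, Tacc3 and Top2a were each detected in 4 cells and Cenpa in 3. The Birc5 detections were 1.38, 6.12, 271 and 389 TPM, and the Mki67 detections were 1.30, 3.25, 9.92 and 79.8 TPM. The cell with the most members, 11, was a late July GMP cell holding Cdk1 at 122 TPM, Mki67 at 79.8 and Tacc3 at 67.7. A second late July cell held Ccnb2 at 771 TPM and Cdca8 at 730, and a CD11b+ GMP-P cell with 5 members held Aurkb at 975 TPM and Ccnb2 at 767. In no Myelo-4 cell were Ccnb1, Plk1, Aurka, Bub1b, Kif20a, Kif23, Kif2c, Prc1, Ckap2, Ect2, Anln or Nek2 detected.

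Differences between states were taken as differences of mean log2(TPM + 1) over cells, a scale that understates differences of low genes, for genes found in 10% or more of the cells of one state or the other. A gene was counted as called when the difference reached 1 in size. State names were given by the authors to the same cells, in a way the sources used here do not state, so these differences describe the annotation. The ± values below are SDs over cells.

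Between Myelo-2 (18 cells) and Myelo-4 (10 cells), all 33 members that could be compared were higher in Myelo-2, and 30 were called, against 25.2% of all 7772 genes. The median difference was 2.09 for members and 0.43 for all genes. In the other direction 0 members were called, against 5.4% of all genes. Cdca8 had the largest difference, 4.06, with means of 5.08 ± 3.62 in Myelo-2 and 1.02 ± 2.99 in Myelo-4. Cdk1 differed by 4.0 (4.72 ± 3.83 against 0.72 ± 2.19) and Kif23 by 3.69 (3.71 ± 3.75 against 0.02 ± 0.06). Both sets overlap in single cells for Cdk1, since 7 of 18 Myelo-2 cells were also below detection. Nek2 was too rare to compare. Within CD11b+ GMP-P alone, with 11 and 7 cells, all 32 comparable members were higher in Myelo-2 and their median was 2.38.

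Between Gran-2 and Myelo-2 within CD11b+ GMP-P (13 and 11 cells), 28 members were higher in Gran-2 and 6 in Myelo-2. Of these, 13 were called higher in Gran-2 (38.2%), against 43.4% of all 7887 genes, and 2 higher in Myelo-2, against 5.29%. The median was 0.79 for members and 0.83 for all genes, close to each other on this scale, in cells with medians of 3760 and 2261 detected genes. Kif11 had the largest difference, 2.61, with a median of 33.5 TPM in Gran-2 (10 of 13 cells) and 0.22 in Myelo-2 (4 of 11). Ccnb1 differed by 2.35 (4.54 ± 4.42 against 2.19 ± 3.63) and Birc5 by 2.25 (6.25 ± 3.24 against 4.0 ± 4.05). Higher in Myelo-2 were Ccna2, with a difference of -1.58 and medians of 0.58 TPM in Gran-2 and 86.3 in Myelo-2, Kif23 with -1.37 and Cenpf with -0.56. Among cells with 2000 or more detected genes (13 and 6 cells) the median of members was -0.67, with 11 of 34 higher in Gran-2, and that of all genes 0.60. That limit removed 5 Myelo-2 cells, with 0, 2, 4, 14 and 19 members, and no Gran-2 cell, and gene and member counts share the library. As a log2 ratio of mean TPM the median was 0.10 for members and 1.13 for all genes.

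Between Gran-1 and Gran-2 (14 and 15 cells), 29 of 34 members were lower in Gran-1. Of these, 17 were called higher in Gran-2, against 7.85% of all 9268 genes, and 0 were called higher in Gran-1, against 24.4%. The median was -1.01 for members and 0.37 for all genes, so the members went the opposite way to the average gene. Mki67 differed by -2.57 (3.29 ± 3.0 in Gran-1 against 5.86 ± 2.40 in Gran-2), Cenpe by -2.31 and Kif23 by -2.17. The 5 members higher in Gran-1 included Bub1 with 0.76, Tacc3 with 0.72 and Nek2 with 0.45. The states come mostly from different runs, and within CD11b+ GMP-P, where only 3 Gran-1 cells against 13 Gran-2 cells exist, the median of members was 0.071, with 18 of 34 higher in Gran-1 and -0.22 for all genes. State and run cannot be told apart for this difference.

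Within the other GMP run, Gran-1 (9 cells) and Mono (32 cells) could be compared without a change of run and with medians of 4860 and 4671.5 detected genes. Of 34 members, 26 were lower in Gran-1, 13 were called higher in Mono, against 7.62% of all 10243 genes, and 1 was called higher in Gran-1, against 16.5%. The median was -0.60 for members and 0.14 for all genes. Cenpa differed by -2.16 (2 of 9 Gran-1 cells against 18 of 32 Mono cells), Kif23 by -2.15 (1 of 9 against 15 of 32) and Bub1b by -2.09 (1 of 9 against 18 of 32). Tacc3 went the other way by 1.92 (8 of 9 against 20 of 32), and Hmmr and Kif2c were higher in Gran-1 by 1.0 and 0.77.

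**Figure D4:**
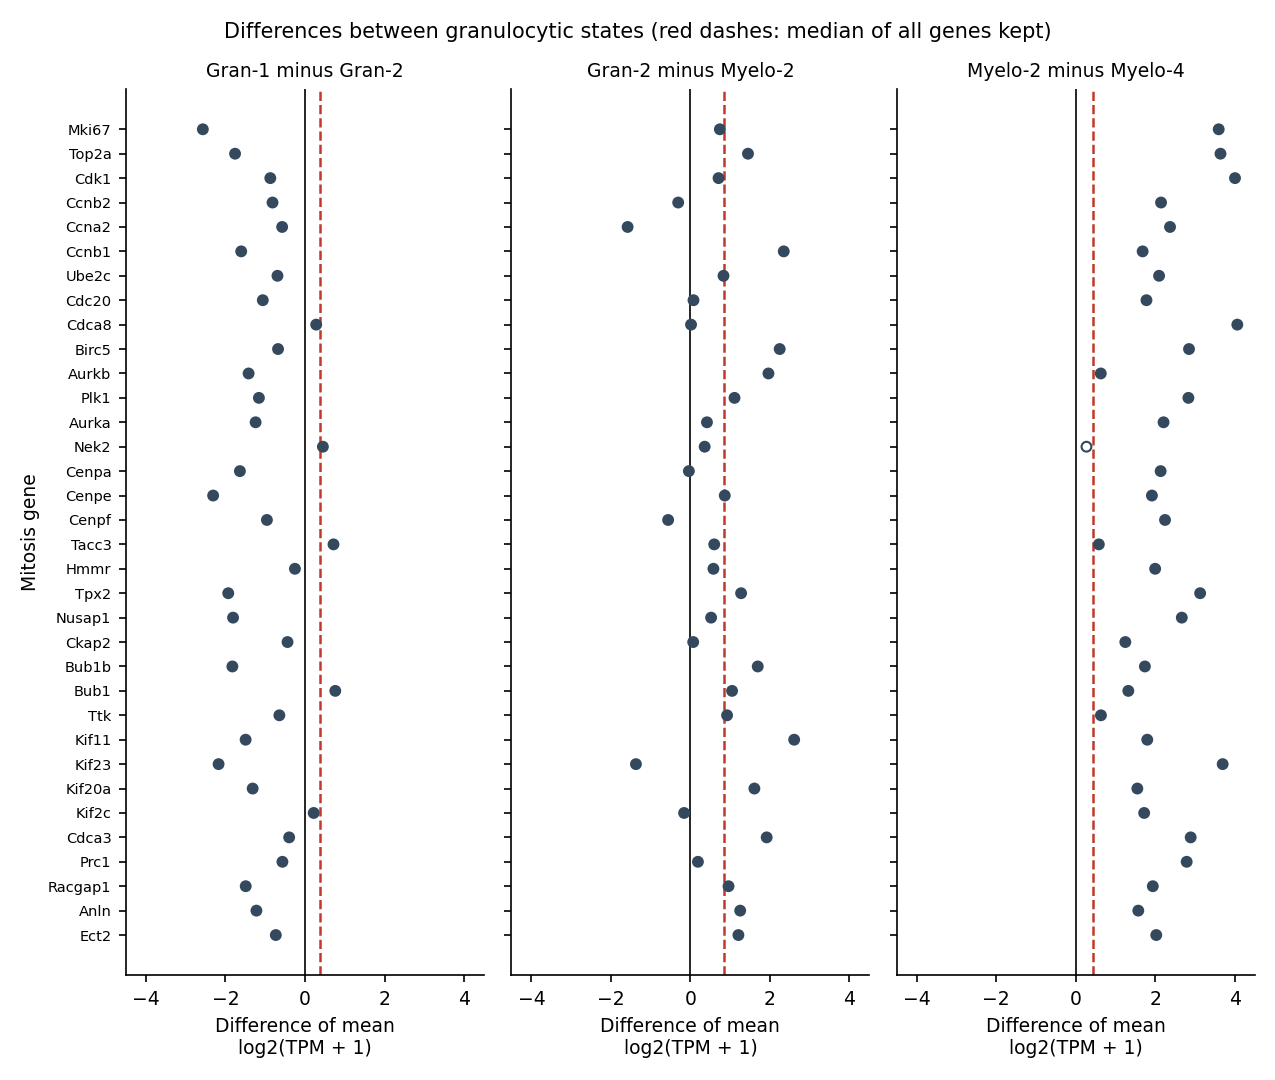
Difference of mean log2(TPM + 1) between granulocytic states (horizontal axis) for each of the 34 mitosis genes (vertical axis), in 3 panels. The solid line is at 0, red dashes mark the median of all genes compared (0.37, 0.83 and 0.43 from left to right), and the open circle is Nek2, too rare to compare. Members lie mostly left of 0 in Gran-1 minus Gran-2, around the dashes in Gran-2 minus Myelo-2 and all to the right of 0 in Myelo-2 minus Myelo-4.

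Other cell cycle lists, which hold none of the 34 genes, moved in part with them. A wider list of 60 G2 and M genes was detected in step with the members from cell to cell, with r of 0.91 over all cells, 0.96 over 18 Myelo-2 and 0.88 over 38 Mono cells. Each pair of counts shares its library. Its median difference was 1.74 for Myelo-2 minus Myelo-4, with 53 of 58 genes higher in Myelo-2 against 68.1% of all genes. It was 0.62 for Gran-2 minus Myelo-2, below the 0.83 of all genes, -0.52 for Gran-1 minus Gran-2 and -0.29 for Gran-1 minus Mono. In Gran-2 minus Myelo-2, 40 of 59 (67.8%) were higher in Gran-2, against 80.1% of all genes. Pbk with 3.86, Ckap2l with 3.26 and Spag5 with 2.66 led them. The other 19 were higher in Myelo-2, led by Mad2l1 with -2.09, Tuba1c with -1.77 and Depdc1a with -1.76. Between single members, the median r over 561 gene pairs was 0.31 in Mono, 0.32 in Gran-2 and 0.32 in Myelo-2.

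The S phase list of 32 replication genes did not follow the members in every state. The median cell detected 81.25% of it in Mono, 78.1% in Gran-1, 71.9% in MP, 68.8% in Gran-2, 31.3% in Myelo-2 and 6.25% in Myelo-4. Corresponding values for the mitosis genes were 58.8, 50, 38.2, 70.6, 55.9 and 8.82%. In the median cell the mitosis genes thus stood above the S phase genes in Myelo-2, Gran-2, Myelo-4 and Myelo-1 (44.1 against 37.5%). They stood below them in MP, Mono, Gran-1 and cMoP (52.9 against 65.6%). The gaps were widest in Myelo-2 and in MP. By mean detection over cells the gap in Myelo-2 was smaller, 46.4% for mitosis and 40.3% for S phase genes. The same means in MP were 38.5 and 69.6%. In Gran-2, Myelo-1 and Myelo-4 the means put the mitosis genes below, at 63.1 against 64.8%, 39.4 against 46.9% and 12.1 against 12.8%. With at least 16 of the 32 S phase genes as the measure, 10 of 11 MP cells were S-phase-high and 8 of these were not mitosis-high. In Gran-2, 10 of the 11 mitosis-high cells were also S-phase-high, against 13 of all 15 cells. In Mono it was 20 of 21, against 35 of 38. In Myelo-2 it was 4 of 10, against 8 of 18, with 6 mitosis-high cells below the S phase mark. The other 4 S-phase-high Myelo-2 cells were not mitosis-high. In Myelo-1 it was 0 of 2, against 2 of 5. The overlap in Gran-2, Mono and Myelo-2 was thus near the S-phase-high share of the whole state. For Gran-2 minus Myelo-2, 31 of 31 comparable S phase genes were higher in Gran-2, as were 80.1% of all genes. Of the 31, 26 were called (83.9%), against 43.4% of all genes. The median of the S phase genes was 2.23 against 0.79 for the mitosis genes and 0.83 for all genes. Mcm3, a subunit of the replicative helicase, differed by 4.67, Dut, which removes dUTP, by 4.11 and Cdc45 of the helicase by 3.92. Over 38 Mono cells, members and S phase genes detected had r of -0.09, over 18 Myelo-2 cells 0.18 and over 15 Gran-2 cells -0.07. Without the 2 cells farthest from the median these became -0.19, -0.19 and 0.21, so the signs in Myelo-2 and Gran-2 rest on those cells.

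**Figure D5:**
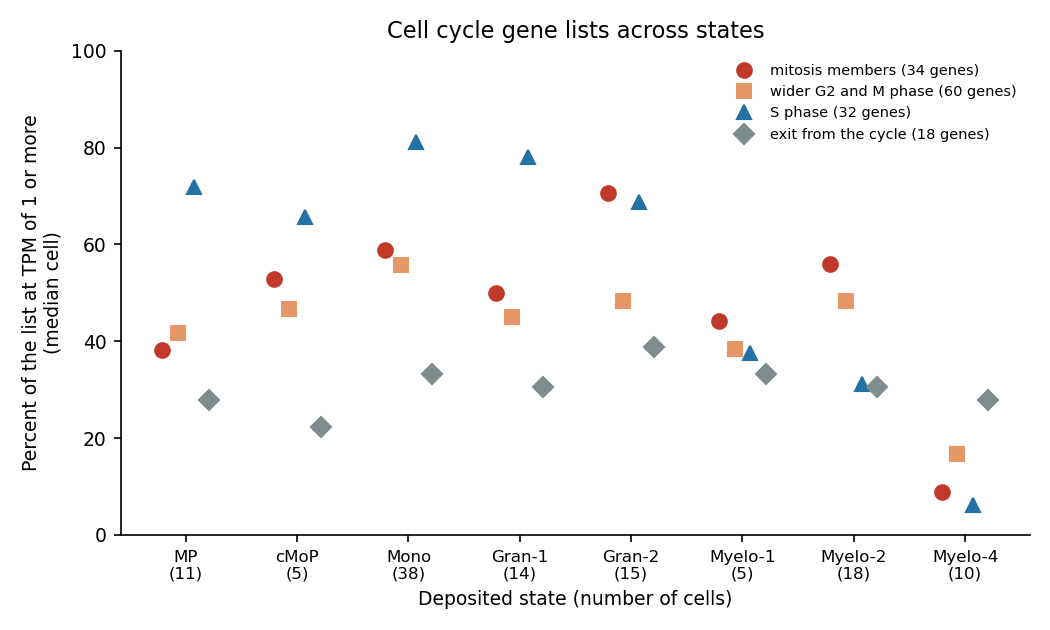
Percent of each gene list at a TPM of 1 or more in the median cell (vertical axis) of 8 deposited states (horizontal axis, number of cells in brackets) for 4 cell cycle lists, set side by side within a state. S phase genes (triangles) stand above the mitosis genes (circles) in MP (71.9 against 38.2%), cMoP, Mono and Gran-1. They stand below them in Myelo-2 (31.3 against 55.9%), Gran-2, Myelo-1 and Myelo-4, and both are under 10% in Myelo-4.

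Of an 18-gene list tied to leaving the cycle, the median cell detected 27.8% in Myelo-4, with a range over the 8 states from 22.2% in cMoP to 38.9% in Gran-2. For Myelo-2 minus Myelo-4 its median difference was 0.75, against 0.43 for all genes. Of 14 comparable genes, 13 were higher in Myelo-2, against 68.1% of all genes. Called higher in Myelo-2 were 5 (35.7%), against 25.2% of all genes. Called higher in Myelo-4 was 1 (7.14%), against 5.4%. It was Mxd1 with -3.88, detected in 10 of 18 Myelo-2 and 10 of 10 Myelo-4 cells. For Gran-2 minus Myelo-2 the list split, with 7 of 14 comparable genes higher in Gran-2, against 80.1% of all genes. Its median was -0.15, against 0.83 for all genes. Of the 14 genes, 5 were called higher in Gran-2 (35.7%), against 43.4% of all genes. Ccng2 at 2.28, Lin9 at 1.59 and E2f4 at 1.29 were the largest. Called higher in Myelo-2 were 4 (28.6%), against 5.29% of all genes. They were Btg1 with -4.05, Btg2 with -3.17, Mxd1 with -1.54 and Rbl2 with -1.08.

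Mitosis-high cells of Myelo-2 also held the RNA of secondary granules, as did most of those of Gran-2. Ltf (lactoferrin), Camp, Ngp and Mmp8 were detected in all 18 Myelo-2 cells, including the 10 mitosis-high ones, and so was Itgam. In Gran-2, Ltf, Camp, Ngp and Mmp8 were each detected in 14 of 15 cells, 10 of them mitosis-high. Medians of Camp were 3168 TPM in Gran-2 and 48155 in Myelo-2, and those of Ngp 1779 and 97391. Mmp8 was also detected in 35 of 38 Mono and 7 of 11 MP cells. Ltf had a median of 5.62 TPM in Gran-2, 12771 in Myelo-2 and 19430 in Myelo-4. The Myelo-2 cell with the most mitosis genes, 29, held Ltf at 6191 TPM, Top2a at 363 and Ccnb1 at 563. Mmp9, the gelatinase of late granules, was detected in 10 of 10 Myelo-4 cells with a median of 693 TPM, in 9 of 18 Myelo-2 cells, 6 of them mitosis-high, and in 2 of 15 Gran-2 cells. Elane, neutrophil elastase of primary granules, was detected in every cell of the series, with medians of 24131 TPM in Gran-2, 1259 in Myelo-2 and 161 in Myelo-4.

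Marker genes were checked for each state. Neutrophil progenitor markers summed to medians of 69611 TPM in Gran-2, 189301 in Myelo-2 and 228359 in Myelo-4, with all 10 detected in each. The 8 monocyte progenitor markers summed to at most 586 TPM in a Gran-1 cell, 1648 in Gran-2, 488 in Myelo-2 and 82.4 in Myelo-4. Of the eosinophil markers, Ear2 alone was detected in Myelo-2, with a median sum of 60.5 TPM (up to 1184), and the sum reached 2294 TPM in a Myelo-4 cell, with Epx at 0. Macrophage markers summed to at most 963 TPM in Myelo-2 and 881 in Myelo-4, with C1qa below detection in both. Nkg7, listed for T and NK cells, reached 3977 TPM in a Myelo-2 cell and had a median of 5675 TPM in Gran-1, with Cd3e below detection in both. Basophil and mast cell markers had median sums of 189 TPM in Myelo-2 and 600 in Myelo-4, with Prss34 and Cpa3 below detection. The part of these markers in the results was not tested. All 6 erythroid and all 3 megakaryocyte markers were below detection in every Myelo-2 and Myelo-4 cell, and 1 Gran-1 cell with 2783 TPM of erythroid markers held 5 mitosis genes. No columns were identical, and the highest correlation between any 2 cells was 0.73. Run names share 24 cell numbers, of which 3 lie between both late July GMP names, and those 3 pairs correlated at 0.49 to 0.54.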

How the data were processed

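Single-cell RNA-seq was used, with 46 CD11b+ GMP-P and 75 GMP cells grouped by their labels. The submitters' processing notes name Bowtie2, RSEM and the mm9 build. Versions: not given in the sources used here. The authors' deposited table holds log2 values of 23946 genes, judged from the values to be log2(TPM + 1): back-transformed, each cell sums to between 999517 and 1001450, and 81.7% of values are 0. The other deposited table holds the authors' state name for each cell. Depth is unknown, because TPM keeps no read number.

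TPM was taken as 2 raised to the deposited value, less 1, rounded to 2 decimals. Detection was set at 1 TPM, mitosis-high at 17 of 34 members, and a difference was called at 1 on the log2 scale with a pseudocount of 1. Genes had to be detected in 10% of the cells of either state. Shares carry exact 95% intervals, and a share of 0 carries the limit set by 3 cells, which differs from the exact upper end. The members and lists were chosen with earlier results of these data known. All members are given, and those named with full values are the 5 of highest mean TPM, the 4 least detected, the 3 largest in each direction of each difference, and those in 3 or more Myelo-4 cells. Other values of members by state, and the granule and marker genes, were chosen after values were seen. A planned comparison of genes between mitosis-high and other cells was not made, since it would split cells by the measured outcome. The code for differences was tested on simulated data, and that for the exact intervals was checked at a single count. Python 3.11.15, numpy 2.4.6, pandas 2.3.3, scipy 1.17.1 and matplotlib 3.10.9 were used. Promoters came from RefSeq on GRCm38.p6, another build than mm9, so their coordinates belong to the reference alone. Alternatives covered the threshold, the detection level, 29 of the members, gene number, pseudocount, scaling, filter and the cells compared.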

Additional observations from a re-analysis of the deposited data

How the results depend on the processing

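No paired analysis was possible because each population is 1 sample, no label gives replicate numbers that join them and no result comes from a test. Over 96 alternative values, 66 stayed near the value reported, 28 moved and 2 changed sign. Near meant inside the exact interval for shares and less than the SD over cells away for median members. For differences it meant within a fixed ratio of the value reported. Part of the values that stayed near could not have moved. The lower limit on detected genes removed no cell in MP, cMoP, Gran-1, Gran-2 or Myelo-1, nor in Gran-1 minus Gran-2. Without the gene filter the members compared changed only in Myelo-2 minus Myelo-4, so the other differences repeated the value reported. The tally therefore overstates stability. The Myelo-4 share was 0% under every alternative run. Only the lower member threshold and the shortened member list could have raised this share. The other alternatives were stricter or only chose among the same cells, so a share of 0% could not change there.

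Requiring 12 members gave 54.5% in MP, 78.9% in Mono and 70.97% in other GMP. Requiring 23 gave 20% in cMoP, 28.6% in Gran-1, 0% in Myelo-1, 27.8% in Myelo-2, 28.3% in CD11b+ GMP-P and 35.5% in other GMP. Among the shares by state not given above, detection at 10 TPM gave 60% in cMoP, 50% in Mono and 18.2% in MP. With 29 members Mono gave 52.6% and MP 18.2%. All shares by state at 10 TPM and with 29 members lay within the counting intervals of the main setting. The shares named above for 12 and 23 members lay outside them. For CD11b+ GMP-P, detection at 10 TPM gave 30.4% and cells with 2000 or more genes gave 67.6%. The same settings gave 43.5% and 50% in other GMP, and 30.8% and 45.5% in late July GMP. Restricting cells to the gene number range of Myelo-4, chosen after seeing the data, gave 28.6% in Myelo-2, 0% in Mono (1 cell) and 100% in Myelo-1 (1 cell). Splitting each state by run name was also added after seeing the data.

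Counted among the 1500 highest genes of each cell, median members were 3 in MP, 8 in cMoP, 6 in Mono, 6 in Gran-1, 9 in Gran-2 and 7 in Myelo-1, a lower scale by construction. How much is lost differs by state, since 1500 is a larger part of the genes where fewer are detected. Median differences moved as follows. Gran-2 minus Myelo-2 was 0.29 with a pseudocount of 10, 0.10 as a ratio of mean TPM, 0.47 after upper quartile scaling and -0.67 in cells with 2000 or more genes. Gran-1 minus Gran-2 was -0.55 with a pseudocount of 10, -0.53 as a ratio and 0.071 in CD11b+ GMP-P only. Myelo-2 minus Myelo-4 was 1.04 with a pseudocount of 10 and 4.21 as a ratio. Gran-1 minus Mono was -1.08 as a ratio. The cause of these changes was not tested.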
